A study of Mus musculus with 48 samples.

Results

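The 33 genes described here are genes of astrocytes, the star-shaped glia of the brain, and they were taken by name from the 54838 genes counted in 48 libraries of ribosome-bound mRNA from the mouse nucleus accumbens. All 33 names matched an Ensembl gene identifier, and all 33 passed the filter on low counts in every comparison, also within D1 libraries alone and D2 libraries alone. The filter needs enough reads in only some of the libraries, so a scarce gene can pass through those in which it is higher. Each library holds mRNA pulled down with an antibody against a haemagglutinin tag on the ribosomal protein Rpl22. D1 libraries came from Drd1Cre x Rpl22HA mice, in which Cre driven by the dopamine D1 receptor gene switches on the tag, and D2 libraries from A2ACre x Rpl22HA mice, in which the driver is Adora2a, the adenosine receptor gene of dopamine D2 receptor neurons. The D1 groups were female and male fentanyl abstinence and female and male water abstinence, and the D2 groups were the same 4, with 6 libraries in each of the 8 groups and a pool of 4 mice in each library. Fentanyl is a mu-opioid agonist, and the tissue was taken on day 10 of abstinence. The labels name neurons as the cell type of every library, so the astrocyte genes are measured here in pull-downs aimed at neurons, and no unbound input RNA was used to say how far they were depleted.

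Astrocytes take up glutamate released at synapses and return it to neurons as glutamine, buffer potassium and pH, and wrap blood vessels with endfeet rich in water channels. They are joined to one another by gap junctions, feed neurons with products of glycolysis and glycogen, and secrete lipid carriers and proteins that act on synapses. In the striatum they respond to dopamine and glutamate, and they react to injury and drugs by changing their cytoskeleton and secreted proteins. Gfap, which differed most between the pull-downs, is given first below, and the other genes follow by role.

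The libraries held 20211543 to 42584762 reads in genes, with a mean of 27153238 ± 2712615 in D1 libraries and 32690424 ± 3511626 in D2 libraries (SD, n = 24 each). Levels are given in CPM, counts scaled to library size with TMM factors, and levels compared between genes are also divided by exon length (RPKM). The labels fit the neuronal markers: Drd1 averaged 490 ± 60.4 CPM in D1 water libraries and 50.9 ± 6.94 CPM in D2 water libraries, and Drd2 58.3 ± 19.3 CPM in D1 water libraries and 418 ± 34.6 CPM in D2 water libraries (SD, n = 12 each). No library was a copy of another in its group. The D1 and D2 libraries come from different mouse lines, so the line, the pull-down and the neurons it aims at cannot be told apart. The labels give no preparation date.

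Astrocyte genes made up a small share of the reads in each group. The 33 genes together took 0.0987 ± 0.00503% of reads in D1 fentanyl libraries, 0.102 ± 0.0092% in D1 water libraries, 0.258 ± 0.0394% in D2 fentanyl libraries and 0.291 ± 0.0481% in D2 water libraries (SD, n = 12 each). In D1 libraries 17 of the 33 averaged at least 100 reads per library, against 31 of 33 in D2 libraries. The fewest reads in D1 were those of Agt, with 9.13 per library on average. Agt was the member with no read at all in a library, in 1 D1 male fentanyl library, where a count of 0 allows up to 0.115 CPM (3 reads, counting error only).

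Per length, the order of the genes differed between the pull-downs at its top. In D2 water libraries Apoe led with 412 ± 83.2 RPKM, ahead of Clu with 92.1 ± 11.5 and Aldoc with 79.9 ± 16.6 RPKM, and the last 2 did not differ beyond their spread. In D1 water libraries Clu led with 54.6 ± 8.37 RPKM, Apoe followed with 43.4 ± 10.5 and Slc1a2 with 21.3 ± 6.33 RPKM, while Aldoc had rank 7 with 12.3 ± 2.37 RPKM (SD, n = 12 each). Clu and Apoe overlapped within their SD in D1, as did Mfge8 and Glul, at 16.2 ± 3.23 and 14.4 ± 2.06 RPKM. At the low end stood Agt in D2 water libraries, with 0.378 ± 0.172 RPKM, and Cbs in D1 water libraries, with 0.163 ± 0.0607 RPKM. Apoe, which encodes the main lipid carrier of the brain, held 8.81% of the summed CPM of the 33 genes in D1 water libraries and 30.9% in D2 water libraries.

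**Figure D1:**
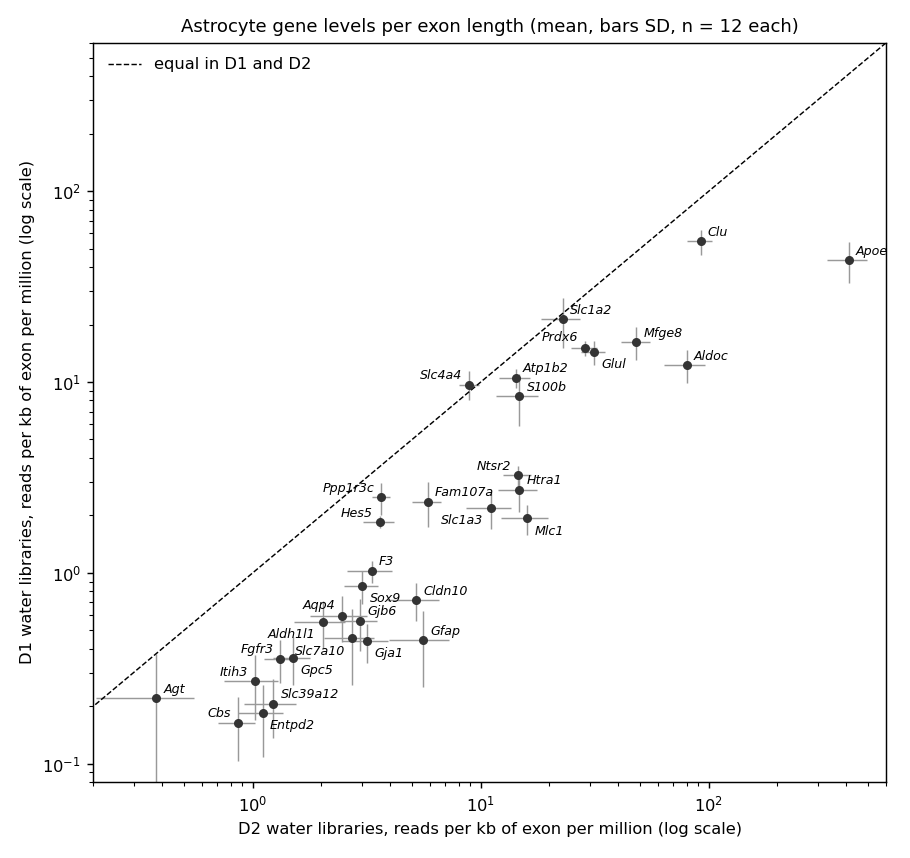
Mean level per exon length of the 33 astrocyte genes (RPKM, log scales) in D1 water libraries against D2 water libraries, with bars for the SD (n = 12 each) and a dashed line of equal levels. Slc1a2 and Slc4a4 lie near the line, and Apoe lies far below it with 43.4 RPKM in D1 and 412 RPKM in D2.

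Set against D2 pull-downs, D1 pull-downs carried less of nearly all astrocyte genes. In water libraries 31 of the 33 astrocyte genes were lower in D1 than in D2 and 0 were higher, by edgeR's quasi-likelihood test at an adjusted p under 0.05. Over all 18270 genes tested 26.6% were lower, and 26.8% were higher. The median log2 difference of the 33 was -1.91, against -0.01 over all genes tested, and 32 of 33 lay below 0, beside 51.2% of all genes. The summed level was 1048 ± 106 CPM in D1 water libraries and 2828 ± 447 CPM in D2 water libraries (SD, n = 12 each). In such pooled pull-downs without input, the number of astrocytes, the RNA per astrocyte and the pull-down itself cannot be told apart. In the fentanyl libraries, which are other pools of mice, 31 of 33 were again lower in D1 and 0 higher, beside 27.2% of genes lower over all tested, with a median log2 difference of -1.67. In those the summed level was 1004 ± 63.7 CPM in D1 and 2539 ± 368 CPM in D2 libraries (SD, n = 12 each). Every D1 library lay below every D2 library for 27 of the 33 genes in water, where 6.11% of all genes did so, and for 28 of 33 in fentanyl, where 6.03% did. The genes whose libraries overlapped in water were Slc1a2, Slc4a4, Atp1b2, Ppp1r3c, S100b and Agt.

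**Figure D2:**
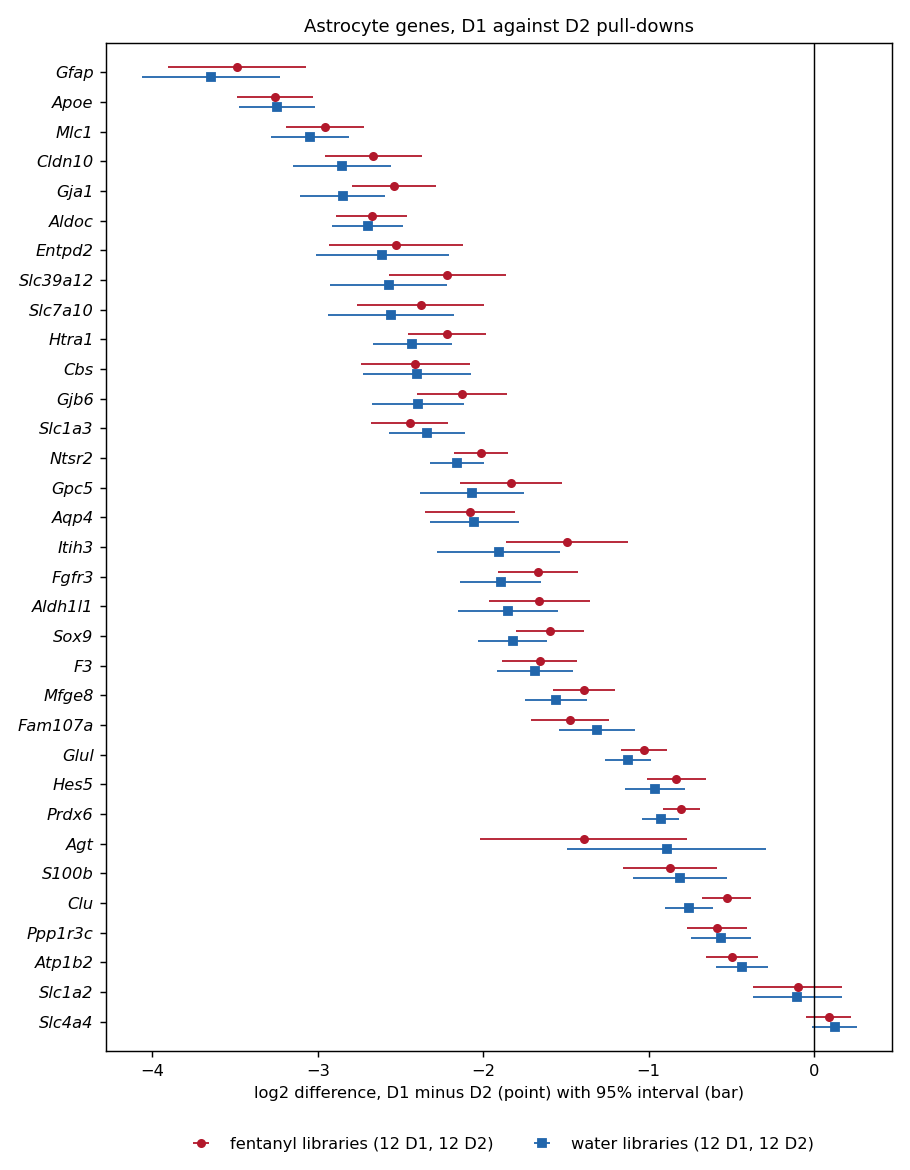
Log2 difference of each astrocyte gene, D1 minus D2, with its 95% interval, in fentanyl libraries (circles) and water libraries (squares), 12 against 12 in each. All genes but Slc1a2 and Slc4a4 have intervals below 0, from -3.64 for Gfap to -0.44 for Atp1b2 in water.

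Gfap, the intermediate filament protein by which astrocytes are most often stained, had the largest difference of the 33 (ENSMUSG00000020932, chromosome 11, 102887336 to 102900912 on GRCm38, as are the positions below). It lay at 0.865, 1.77 and 3.57 CPM (lowest, median and highest of 12) in D1 water libraries, against 11.8, 23.5 and 33.4 CPM in D2 water libraries. No D1 library came near the lowest D2 library, and the 24 D1 libraries held 12 to 96 reads of it each. The log2 difference was -3.64 (SE 0.21, edgeR adjusted p = 4.54e-20), a level 12.5-fold lower in D1. In fentanyl libraries it was -3.49. The other cytoskeletal and calcium-binding genes differed less. Fam107a, which encodes an actin-binding protein, had a log2 difference of -1.31 in water and -1.48 in fentanyl. S100b, a small calcium-binding protein that astrocytes also secrete, averaged 12.5 ± 3.74 CPM in D1 and 21.9 ± 4.48 CPM in D2 water libraries (SD, n = 12 each), with overlapping libraries and a log2 difference of -0.81 (edgeR adjusted p = 3.01e-06).

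Promoters of Gfap, Aldoc and Hes5 are shown because these genes span the differences, with Gfap at the far end, Aldoc among the wide ones and Hes5 among the narrow ones, and because their windows hold motifs of factors known to act in astrocytes. They were chosen after the matches were seen, and for Aldoc the window with both motifs is printed. Each run is the 250 bases before a RefSeq transcription start on GRCm38.p6, 5′ to 3′ on the gene's own strand. Capitals mark the letters of 3 searched motifs on either strand, TGGGAA (the core bound by RBPJ, the factor of Notch signalling), TTCCNGGAA (STAT factors) and ACAAAG (SOX factors).
Gfap, chr11:102897201-102897450, minus strand: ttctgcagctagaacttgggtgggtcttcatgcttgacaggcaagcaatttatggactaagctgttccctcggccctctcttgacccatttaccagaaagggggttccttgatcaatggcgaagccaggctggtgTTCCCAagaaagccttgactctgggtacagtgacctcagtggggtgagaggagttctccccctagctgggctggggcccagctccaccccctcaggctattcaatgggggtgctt
Aldoc, chr11:78323948-78324197, plus strand: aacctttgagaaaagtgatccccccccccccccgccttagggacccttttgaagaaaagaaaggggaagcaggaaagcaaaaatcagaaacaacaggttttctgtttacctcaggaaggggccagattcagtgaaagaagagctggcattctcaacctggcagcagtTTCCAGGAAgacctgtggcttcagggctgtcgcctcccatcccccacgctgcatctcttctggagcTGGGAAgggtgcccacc
Hes5, chr4:154960673-154960922, plus strand: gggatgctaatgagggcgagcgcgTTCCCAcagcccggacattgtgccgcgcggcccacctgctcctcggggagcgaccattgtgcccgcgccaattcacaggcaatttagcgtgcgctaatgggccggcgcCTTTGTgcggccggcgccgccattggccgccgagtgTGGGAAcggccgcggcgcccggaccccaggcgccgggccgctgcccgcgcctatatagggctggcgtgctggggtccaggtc

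The Gfap window held 1 RBPJ core, 115 bases before the start, the Aldoc window 1 STAT motif 83 bases and 1 RBPJ core 17 bases before it, and the Hes5 window RBPJ cores 226 and 82 bases and a SOX motif 118 bases before it. RefSeq windows were used for 28 of the 33 genes, with 36 windows in all. Windows on chromosome 18, where Aqp4 lies, were not taken for the 33 genes, while the set of all windows had no such limit. TGGGAA was in 33.3% of the 36 windows and in 21.6% of all 32851 promoter windows of the same length, and TTCCNGGAA in 5.56% of the 36 (Agt and Aldoc) and 0.913% of all. The SOX motif ACAAAG, the NFI motif TTGGCA and the TATA motif TATAAA were each in 13.9% of the 36, and in 16.5%, 12.3% and 12.4% of all. GGGCGG (the GC box) was in 44.4% of the 36 and 32.7% of all, while TGACGTCA (the cAMP response element) was in 0 of the 36 windows and in 1.55% of all, and the full palindromic NFI site in 0 and in 0.0365%. TTGGCA can lie inside the full NFI site, each motif was sought on both strands, and a match is a description of the letters only.

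Among the genes of glutamate handling, 2 of 3 were lower in D1 and 1 did not pass. Slc1a3, a glutamate transporter of astrocytes and radial glia, lay at 14.3, 17.7 and 26.6 CPM in D1 water libraries (lowest, median, highest), against 61.6, 104 and 122 CPM in D2 water libraries. The groups did not overlap, and the difference was -2.34 on the log2 scale (SE 0.11, edgeR adjusted p = 1.30e-22). Glul, glutamine synthetase, which turns glutamate into glutamine, averaged 47.8 ± 6.83 CPM in D1 and 104 ± 12.2 CPM in D2 water libraries (SD, n = 12 each), a log2 difference of -1.12. Of its stretches of 50 bases 12.6% also occur in other genes, so its level is uncertain. Slc1a2, the glutamate transporter that clears most synaptic glutamate in the forebrain, is encoded at chromosome 2, 102658659 to 102790784 (ENSMUSG00000005089). It lay at 187, 251 and 418 CPM in D1 water libraries and at 202, 298 and 390 CPM in D2 water libraries. The groups overlapped through almost their whole range, with a log2 difference of -0.10 (95% interval -0.37 to 0.17, edgeR adjusted p = 0.544) in water and -0.10 (-0.37 to 0.17, adjusted p = 0.546) in fentanyl libraries.

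Of the carriers for ions and nutrients 3 of 4 were lower in D1. Slc7a10, which exchanges small neutral amino acids such as serine and glycine, and Slc39a12, a zinc importer, were lower in D1 water libraries, with log2 differences of -2.56 and -2.57. Over the 24 D1 libraries they averaged 25.2 and 16.4 reads, and 17.9% of the exonic bases of Slc7a10 overlap Lrp3. Atp1b2, a sodium pump subunit of glia, averaged 43.0 ± 4.76 CPM in D1 and 58.2 ± 9.09 CPM in D2 water libraries (SD, n = 12 each), the smallest difference that passed, with a log2 of -0.44 (SE 0.08, edgeR adjusted p = 5.36e-06). Slc4a4, the sodium bicarbonate cotransporter that sets pH around synapses (ENSMUSG00000060961, chromosome 5, 88886818 to 89239653), lay at 87.8, 97.4 and 143 CPM in D1 water libraries and at 81.3, 98.8 and 119 CPM in D2 water libraries. Its libraries overlapped, and it was the member with a difference above 0, at a log2 of 0.12 in water (95% interval -0.01 to 0.26, edgeR adjusted p = 0.115) and 0.09 in fentanyl libraries (-0.05 to 0.22, adjusted p = 0.275).

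The genes of gap junctions, endfeet and membrane contacts were lower in D1 by the largest median of the 8 roles, with 5 of 5 lower and a median log2 difference of -2.85 in water and -2.54 in fentanyl. Gja1, the main gap junction connexin of astrocytes, lay at 3.04, 4.40 and 7.17 CPM in D1 water libraries, against 19.1, 32.6 and 43.8 CPM in D2 water libraries. The groups were far apart (log2 -2.85, SE 0.13, edgeR adjusted p = 4.85e-24). Gjb6, the other astrocyte connexin, differed by -2.39. Mlc1, a membrane protein of endfeet that is mutated in a human leukoencephalopathy, lay at 4.30, 5.18 and 7.19 CPM in D1 water libraries, against 26.7, 44.7 and 57.3 CPM in D2 water libraries (log2 -3.05, edgeR adjusted p = 1.42e-26), again without overlap. Aqp4, the endfoot water channel, averaged 3.70 ± 1.01 CPM in D1 and 15.4 ± 4.30 CPM in D2 water libraries (SD, n = 12 each), a log2 of -2.05. Cldn10, a claudin, averaged 1.86 ± 0.417 CPM in D1 and 13.5 ± 3.45 CPM in D2 water libraries (SD, n = 12 each), a log2 of -2.86.

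All 6 metabolic enzymes were lower in D1, over a wide range. Aldoc, the brain form of the glycolytic enzyme aldolase, lay at 33.9, 36.9 and 60.5 CPM in D1 water libraries, against 170, 264 and 343 CPM in D2 water libraries. The lowest D2 library stood far above the highest D1 library (log2 -2.70, SE 0.11, edgeR adjusted p = 4.29e-26), 6.50-fold lower in D1. Entpd2, which breaks down extracellular ATP, and Cbs, which starts the path from homocysteine to cysteine, differed by -2.61 and -2.40 in water. Entpd2 averaged 9.79 reads over the 24 D1 libraries, and 28.8% of its exonic bases overlap Npdc1. Aldh1l1, a folate enzyme whose promoter is widely used to mark astrocytes, averaged 2.51 ± 0.713 CPM in D1 and 9.16 ± 2.29 CPM in D2 water libraries (SD, n = 12 each), a log2 of -1.85. Prdx6, a peroxiredoxin against oxidised lipids, and Ppp1r3c, which brings a phosphatase to glycogen, had smaller differences of -0.93 and -0.56.

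All 4 receptor and surface genes were lower in D1, with a median log2 difference of -1.98 in water. Ntsr2, a neurotensin receptor of astrocytes, averaged 10.1 ± 1.24 CPM in D1 and 45.4 ± 6.37 CPM in D2 water libraries (SD, n = 12 each). That log2 difference of -2.16 had the smallest SE of these 4 genes (SE 0.08, edgeR adjusted p = 6.86e-27). Gpc5, a heparan sulfate proteoglycan of the surface, Fgfr3, a fibroblast growth factor receptor, and F3, the tissue factor that starts clotting, differed by -2.07, -1.90 and -1.69. Of the exonic bases of Fgfr3 13.9% overlap another gene, as do 13.4% of those of Aldh1l1.

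The 6 secreted proteins were all lower in D1, by a median of -1.73 in water. Apoe (ENSMUSG00000002985, chromosome 7, 19696109 to 19699188) lay at 71.6, 84.8 and 156 CPM in D1 water libraries, against 585, 948 and 1113 CPM in D2 water libraries. The gap between the groups was wide, although 1 D1 male water library stood well above the rest of its group, and the log2 difference was -3.25 (SE 0.11, edgeR adjusted p = 7.28e-28), 9.49-fold lower in D1. Htra1, a secreted serine protease, and Itih3, a protein that binds hyaluronan, differed by -2.43 and -1.91, and Mfge8, which tags dying membranes for phagocytes, by -1.56. Clu, an extracellular chaperone and lipid carrier, lay at 108, 191 and 228 CPM in D1 water libraries, against 251, 318 and 377 CPM in D2 water libraries. Those groups did not overlap, though the log2 difference was modest at -0.76 (SE 0.07, edgeR adjusted p = 2.04e-12). Agt, the precursor of angiotensin, averaged 0.415 ± 0.293 CPM in D1 and 0.715 ± 0.325 CPM in D2 water libraries (SD, n = 12 each), a log2 of -0.89 (edgeR adjusted p = 0.0104) that rests on very few reads.

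Both transcription factors were lower in D1. Sox9, which keeps the astrocyte fate, averaged 3.52 ± 0.681 CPM in D1 and 12.5 ± 2.09 CPM in D2 water libraries (SD, n = 12 each), a log2 of -1.82. Hes5, a repressor switched on by Notch, lay at 2.28, 2.47 and 2.88 CPM in D1 water libraries, against 3.44, 4.90 and 5.96 CPM in D2 water libraries. Its D1 libraries lay close together and below all D2 libraries (log2 -0.96, SE 0.09, edgeR adjusted p = 9.56e-13). Of its exonic bases 31.8% overlap Gm20421. The library kit keeps no strand, and the strand setting of the counting is not given. Reads on the shared bases may have been left out as ambiguous or counted for either gene, which was not tested.

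**Figure D3:**
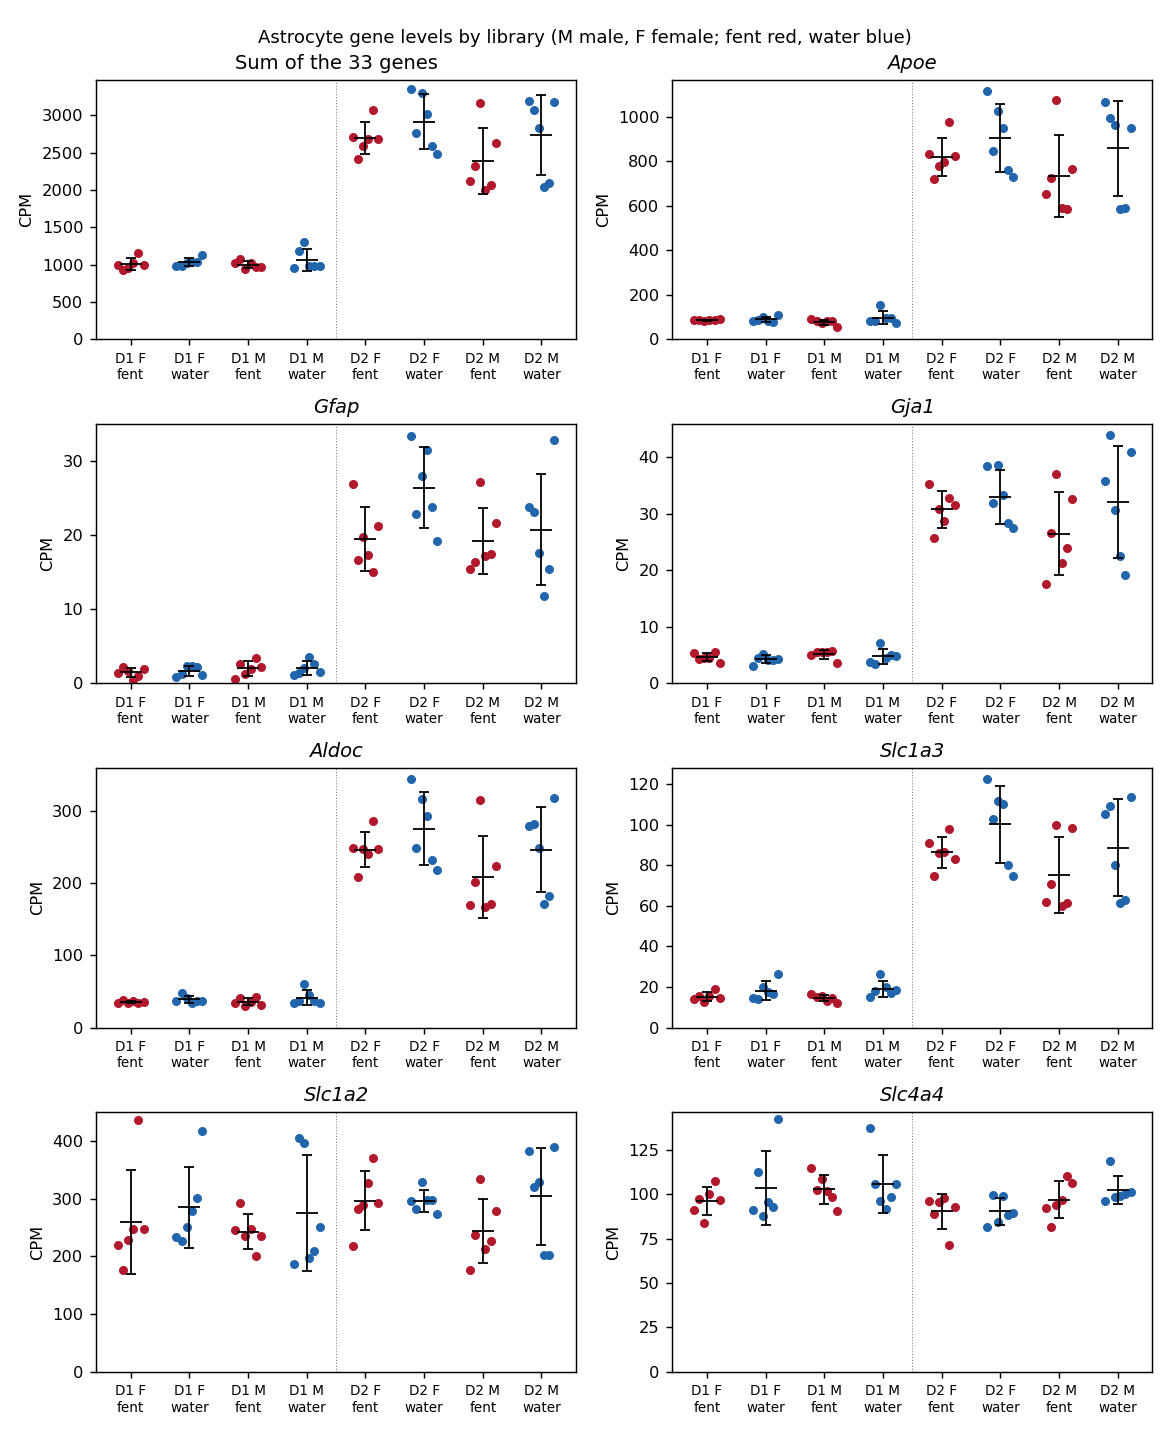
CPM of the summed 33 genes and of 7 of them in every library, by cell type, sex (M male, F female) and treatment, with the mean and SD of each group of 6. The D1 and D2 libraries are separate in the sum, Apoe, Gfap, Gja1, Aldoc and Slc1a3, and they overlap in Slc1a2 and Slc4a4.

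Other astrocyte genes, listed apart from the 33, were lower in D1 more often than not. Of 38 further astrocyte genes 30 were lower and 2 higher in water, where 26.6% of all genes were lower and 26.8% higher. The median log2 difference of the 38 was -1.18. The widest differences were those of Id3, an inhibitor of basic helix-loop-helix factors (-2.98), Acsbg1, an acyl-CoA synthetase (-2.88), and Lcat, which esterifies cholesterol (-2.73). Higher in D1 were Cxcl14, a chemokine (0.31), and Sparcl1, a matrix protein that promotes synapses (0.19). Sparcl1 averaged 265 ± 48.9 CPM in D1 and 231 ± 32.9 CPM in D2 water libraries (SD, n = 12 each). Of 35 genes known to rise in reactive astrocytes 28 were tested, and 20 were lower and 3 higher in D1, with a median of -1.46. In D1 libraries alone 18 of the 35 passed the filter on low counts, and in D2 libraries alone 26 did. Genes that passed only through the D2 libraries could hardly come out other than lower in D1, so these counts are a description only. Srgn, a proteoglycan of secretory granules (-4.20), Hspb1, a small heat shock protein (-4.18), and Gbp2, a GTPase induced by interferon (-3.97), had the widest differences, while Serpina3n, a protease inhibitor (1.21), Amigo2, an adhesion protein (0.63), and Ptgs2, a prostaglandin synthase (0.57), were higher in D1. Several of these genes are also used by vessels or neurons.

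Markers of vessels, oligodendrocytes, their precursors and microglia were mostly lower in D1 as well, where 26.6% of all genes were, and ependymal markers were near that share. All 12 vascular genes were lower in D1 water libraries, with a median log2 difference of -4.08 and a summed level of 70.6 ± 10.9 CPM, against 524 ± 66.1 CPM in D2 water libraries (SD, n = 12 each). In D1 libraries alone 8 of these 12 passed the filter on low counts, and in D2 libraries alone all 12 did. Vascular genes that passed only through D2 libraries could hardly come out other than lower in D1. All 12 oligodendrocyte genes were lower (median -1.26), summed to 317 to 448 CPM in D1 and 622 to 849 CPM in D2 water libraries, as were 6 of 7 genes of oligodendrocyte precursors (14.7 to 20.7 CPM in D1 and 30.5 to 52.7 CPM in D2). Of 9 microglial genes tested 8 were lower (16.3 to 28.4 CPM in D1 and 24.1 to 61.6 CPM in D2), and of 4 ependymal genes 1 was, with a median of -0.22 (9.76 ± 0.892 CPM in D1 and 11.6 ± 1.28 CPM in D2 water libraries, SD, n = 12 each). Mbp, a myelin protein, averaged 171 ± 12.3 CPM in D1 and 280 ± 28.2 CPM in D2 water libraries, and Cldn5, of the endothelial tight junction, 3.76 ± 1.28 CPM in D1 and 57.9 ± 7.46 CPM in D2 water libraries (SD, n = 12 each). Kcnj8, Abcc9 and Slc38a5 of the vascular list, Trem2 of the microglial list and Tmem212 of the ependymal list had 0 reads in at least 1 library, as did 18 of the 35 reactive astrocyte genes. The 12 markers shared by medium spiny neurons had 2 genes higher and 4 lower in D1, with sums of 8948 ± 824 CPM in D1 and 10383 ± 567 CPM in D2 water libraries (SD, n = 12 each). Reads outside genes, ambiguous or not unique also differed, at 26.3 ± 1.97% of reads in D1 and 19.5 ± 0.957% in D2 libraries (SD, n = 24 each), with no overlap between the pull-downs. Of these, reads in no gene were 13.1 ± 1.46% in D1 and 7.97 ± 0.843% in D2 libraries. The part of these cells and reads in the difference of the astrocyte genes was not tested.

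Pairs of astrocyte genes varied together from library to library more in D2 than in D1. With group means removed, the median Pearson correlation of log2 CPM over the 528 pairs of the 33 genes was 0.07 in the 24 D1 libraries and 0.62 in the 24 D2 libraries. Among the 17 genes with at least 100 reads per D1 library it was 0.14 in D1 and 0.74 in D2 libraries, with the scarcer genes left out. These are descriptions without a test, over genes of the same libraries that share each pool's depth, scaling and pull-down. In D2 libraries Aldoc had the highest median correlation with the other members (0.80), and its r with Apoe was 0.96, with Slc1a3 0.94 and with Gja1 0.90. Slc1a2, whose D1 and D2 libraries overlapped, had a median of 0.68 in D2 libraries. Slc4a4 and Agt stood apart with medians of -0.05 and 0.11, and Hes5 had 0.29.

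**Figure D4:**
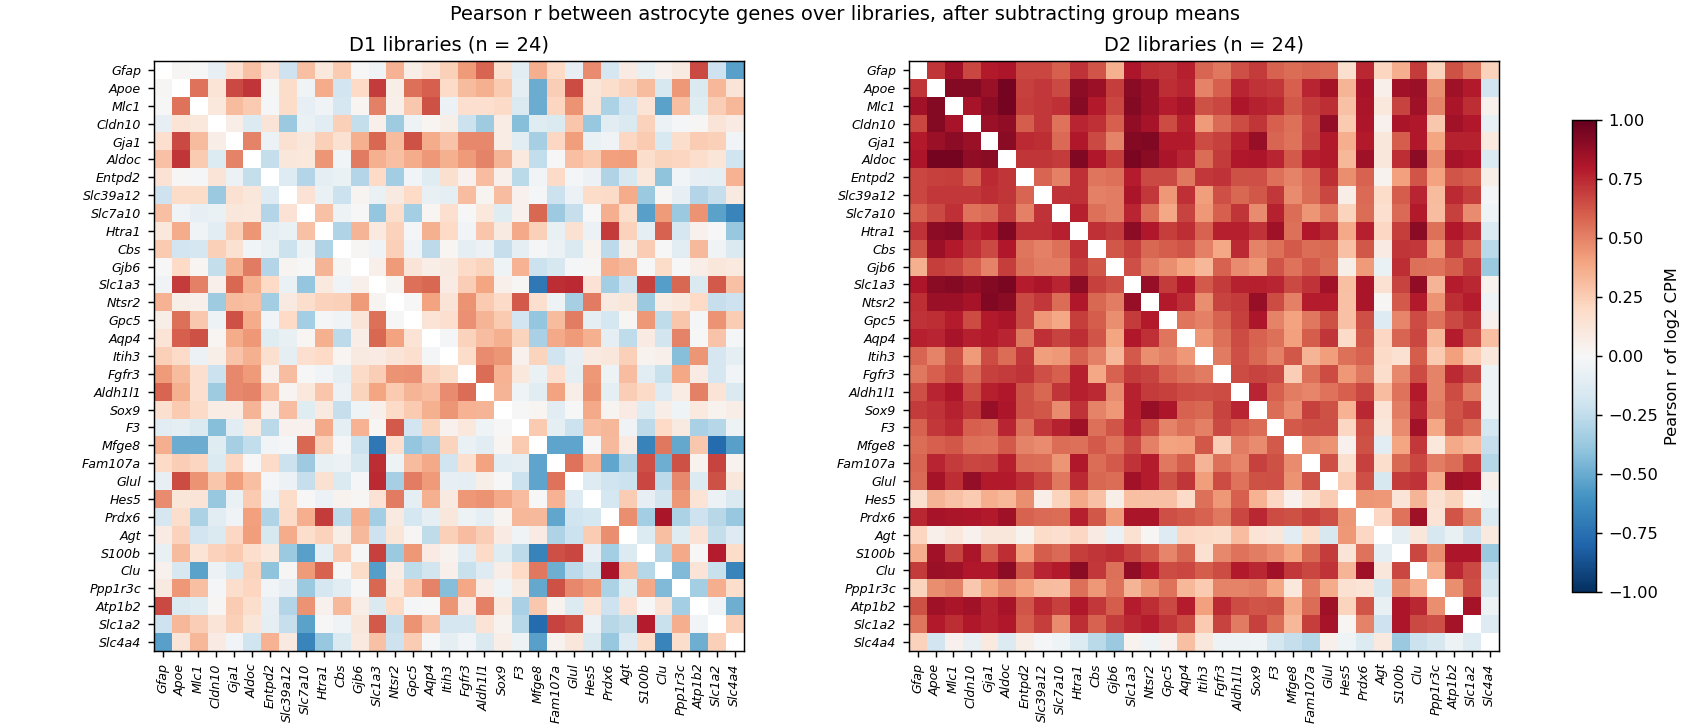
Pearson r of log2 CPM between each pair of the 33 astrocyte genes after group means were removed, in 24 D1 libraries and 24 D2 libraries, with genes in the order of their D1 against D2 difference. Most D2 cells are red (median 0.62), except in the rows of Agt and Slc4a4, and D1 cells are mixed (median 0.07).

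In D1 libraries a few pairs of well-counted genes had strong correlations of either sign. Clu and Prdx6 had an r of 0.82, Slc1a2 and S100b of 0.79, and Slc1a3 and Fam107a of 0.74. Mfge8 ran against both glutamate transporters, with an r of -0.77 with Slc1a2 and -0.71 with Slc1a3. Its r with the amino acid exchanger Slc7a10 was 0.58, with a mean of 25.2 Slc7a10 reads in D1 libraries. The pair Slc1a2 and Mfge8 had 0.34 in D2 libraries. The D1 libraries highest in Slc1a2 were also those lowest in Mfge8. They were female fentanyl replicate 5 (437 and 47.3 CPM) and female water replicate 6 (418 and 42.6 CPM). The others were male water replicates 2 (406 and 63.1 CPM) and 3 (397 and 57.7 CPM). Female water replicate 6 also had the least Clu and Prdx6 in D1 and the fewest reads of any library. Correlations without these libraries were not computed. Against other lists, the 33 genes in D2 libraries had median correlations of 0.53 with the further astrocyte genes, 0.53 with oligodendrocyte genes, 0.38 with those of their precursors, 0.37 with vascular and 0.21 with microglial genes. With the genes shared by medium spiny neurons the median was -0.34, and with D2 neuron genes -0.33. In D1 libraries these gene-pair medians lay between -0.10 and 0.09 for every list, but the summed levels moved together more than single genes did. With group means removed, the summed log2 level of the 33 genes in D1 libraries had an r of 0.71 with the vascular sum, 0.60 with the microglial, 0.43 with the further astrocyte, 0.06 with the oligodendrocyte and -0.69 with the medium spiny neuron sum. In D2 libraries the same sums had an r of 0.63, 0.42, 0.88, 0.79 and -0.56. With the D2 neuron sum the r was -0.52 in D1 and -0.69 in D2 libraries. The sums weigh abundant genes most and share each library's depth and scaling, and these values carry no test.

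In D1 pull-downs, fentanyl abstinence was compared with water abstinence over both sexes. None of the 33 astrocyte genes passed (0 of 33 at an edgeR adjusted p under 0.05, beside 0% of 16782 genes), 2 had an unadjusted p under 0.05, and 21 lay below 0. DESeq2 and limma voom also called 0 of 33, with 3 and 1 at an unadjusted p under 0.05, and DESeq2 called 3 of all genes. Over all genes 639, or 3.81%, had an unadjusted p under 0.05, and 50.3% lay below 0. The 2 members became 4 without D1 male water replicate 6 or D1 female water replicate 5, and 1 without D1 male fentanyl replicate 6, male water replicates 3 or 4, female fentanyl replicates 1, 3 or 6, or female water replicate 3. The median log2 difference of the 33 was -0.07, and the intervals were wide for the scarce genes, from -1.28 to 0.20 for Agt. Slc1a3 had the smallest p. It lay at 12.2, 14.8 and 19.0 CPM in D1 fentanyl libraries, against 14.3, 17.7 and 26.6 CPM in D1 water libraries. The groups overlapped from 14.3 to 19.0 CPM, and some water libraries lay above every fentanyl library. Its log2 difference was -0.33 (95% interval -0.53 to -0.13, unadjusted p = 0.00217, edgeR adjusted p = 1.00). Aldoc followed with -0.17 (-0.34 to -0.00339, unadjusted p = 0.0459 in the same edgeR fit). Next were Apoe, with 81.1 ± 9.03 CPM in D1 fentanyl and 92.8 ± 22.5 CPM in D1 water libraries (SD, n = 12 each, log2 -0.19), Aqp4 (-0.24), Mlc1 (-0.15) and Fam107a (-0.20), each with an interval that included 0.

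In D2 pull-downs all 33 differences between fentanyl and water lay below 0, and none passed. By edgeR 0 of 33 had an adjusted p under 0.05, beside 0% of 17706 genes, and 8 of 33 had an unadjusted p under 0.05, where 783 of all genes, or 4.42%, did. DESeq2 called 0 of 33, with 8 at an unadjusted p under 0.05, and limma voom 0, with 7. Of all genes 49.1% lay below 0. The median log2 difference of the 33 was -0.19, against 0.00 over all genes tested, but the 33 move together from library to library in D2, so their number below 0 is not 33 separate measurements. The summed level was 2004, 2613 and 3161 CPM in D2 fentanyl libraries (lowest, median, highest of 12), against 2042, 2925 and 3357 CPM in D2 water libraries. These ranges overlap over most of their length. At the high end, D2 male water replicates 1 and 6 (3196 and 3182 CPM) lay above every fentanyl library. So did D2 female water replicates 1 and 3 (3357 and 3302 CPM). At the low end, 2 of the 12 water libraries, D2 male water replicates 4 and 5, lay with the lowest fentanyl libraries.

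Slc39a12, the zinc importer, had the smallest p of the 33 in D2. It lay at 2.26, 2.69 and 3.98 CPM in D2 fentanyl libraries, against 2.22, 3.49 and 5.04 CPM in D2 water libraries. The groups overlapped, with a log2 difference of -0.38 (95% interval -0.65 to -0.11, unadjusted p = 0.00831, edgeR adjusted p = 0.998). Aldh1l1 had -0.32 (-0.56 to -0.08), with 7.33 ± 1.82 CPM in D2 fentanyl and 9.16 ± 2.29 CPM in D2 water libraries (SD, n = 12 each). Slc7a10 had -0.30, Fgfr3 -0.22, Htra1 -0.24 and Sox9 -0.20, with intervals below 0 and the same adjusted p of 0.998 in edgeR. No fentanyl group lay wholly below its water group for any member in D1 or D2, as for 0% of all genes. F3, named after its value was seen, had the difference nearest to 0, at -0.00287 (-0.23 to 0.22). Without single libraries the number with an unadjusted p under 0.05 moved between 3 and 23. It was 23 without D2 male fentanyl replicate 3, 20 and 19 without D2 male water replicates 5 and 4, 16 without D2 female water replicate 6 and 13 without D2 male fentanyl replicate 6. It was 3 to 5 without any of D2 male fentanyl replicates 1, 4 or 5, male water replicates 1 or 6, female fentanyl replicates 2 or 3, or female water replicates 1, 3 or 4. The number called stayed at 0 in each of these fits, and 30 to 33 genes lay below 0.

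**Figure D5:**
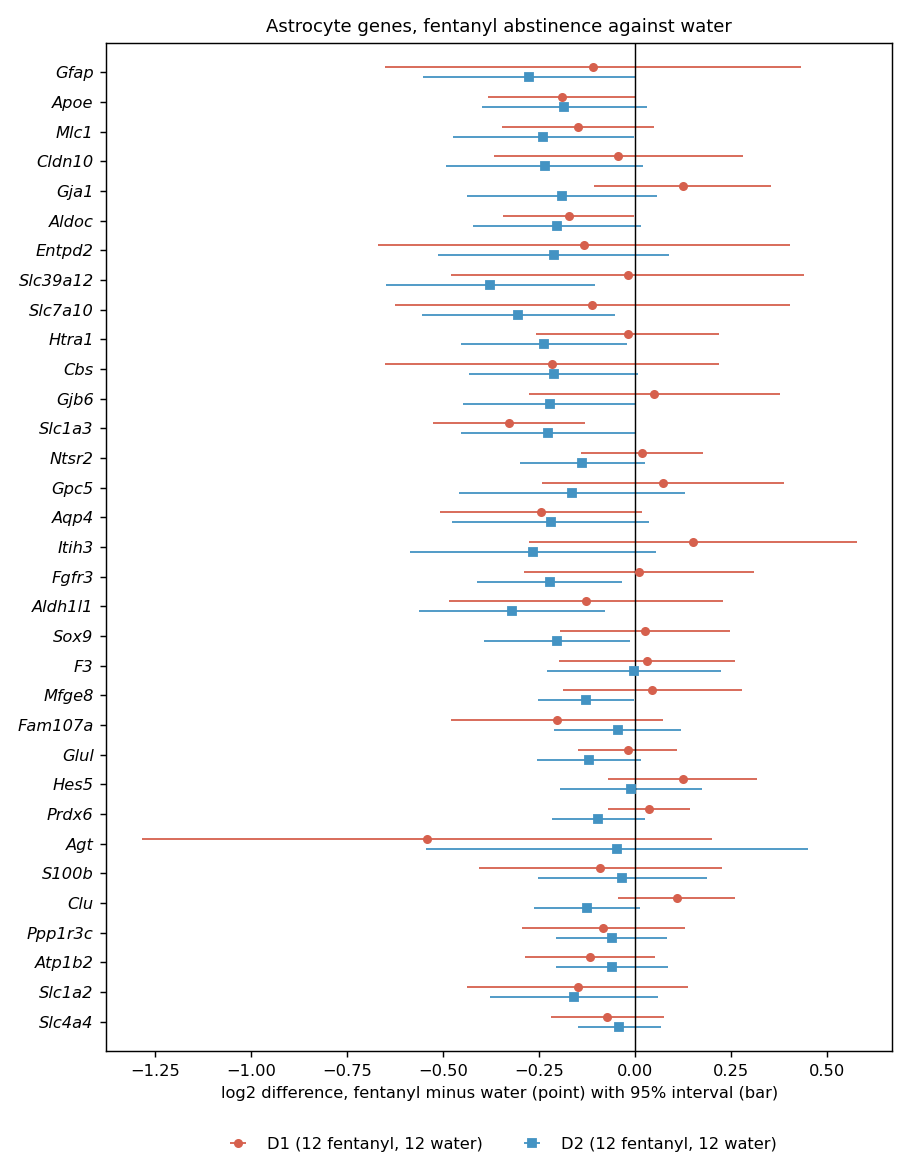
Log2 difference of each astrocyte gene, fentanyl minus water, with its 95% interval, in D1 libraries (circles) and D2 libraries (squares), 12 against 12 in each. The D2 points all lie below 0, from -0.38 for Slc39a12 to -0.00287 for F3, the D1 points lie on either side, and no gene passed the test.

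The other glial lists were measured in the same D2 comparison. Of 38 further astrocyte genes 31 lay below 0 (median -0.16), of 12 oligodendrocyte genes 10 (median -0.12) and of 7 precursor genes 6 (median -0.14), none of them called by edgeR. An unadjusted p under 0.05 by edgeR was found for 9 of the 38, 3 of the 12 and 1 of the 7. It was found for 3 of 26 reactive astrocyte genes and for 0 vascular and 0 microglial genes. Over all 17706 genes 49.1% lay below 0 and 4.42% had such a p. Of 12 vascular genes 5 lay below 0 (median 0.02), of 9 microglial genes 3, and of 26 reactive astrocyte genes 12 (median 0.00). Summed oligodendrocyte genes stood at 725 ± 86.8 CPM in D2 fentanyl and 745 ± 76.2 CPM in D2 water libraries, and vascular genes at 526 ± 90.1 CPM in D2 fentanyl and 524 ± 66.1 CPM in D2 water libraries (SD, n = 12 each). With the mean log2 level of the vascular, oligodendrocyte and microglial markers as a covariate, 31 of the 33 astrocyte genes lay below 0, with a median of -0.15, 16 had an unadjusted p under 0.05 and 0 were called. In that fit 49.1% of all genes lay below 0, 4.77% had an unadjusted p under 0.05 and 0% were called. The 33 are correlated in D2 libraries, so the 16 are not separate measurements.

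The difference between the pull-downs in the response to fentanyl was tested directly, as D1 minus D2. By edgeR 0 of 33 genes passed (0% of 18270), 1 had an unadjusted p under 0.05, where 4.52% of all genes did, and DESeq2 and limma voom also called 0, with 1 each. The median was 0.13, with 10 of 33 below 0, beside 51.6% of all genes. Clu had the smallest p, with a response of 0.11 in D1 and -0.13 in D2 libraries, a difference of 0.23 (95% interval 0.02 to 0.43, unadjusted p = 0.0309, edgeR adjusted p = 1.00). Gja1 differed by 0.31 (-0.04 to 0.66), Prdx6 by 0.13, Itih3 by 0.41, Sox9 by 0.22 and Slc39a12 by 0.35, each with an interval that included 0. The median distance from an estimate to either end of its interval was 0.33, so smaller differences in response could not be told from 0 for a typical member.

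Within a sex, none of the 33 passed in either pull-down by edgeR (0% of all genes in each of the 4 comparisons). In D2 females 28 of 33 lay below 0 (49.5% of all genes), with 3 at an unadjusted p under 0.05 (4.73%), and in D2 males 30 of 33 (51.1%), with 6 (6.97%). DESeq2 and limma voom called 0 in each, with 4 and 4 at an unadjusted p under 0.05 in D2 females, 5 and 1 in D2 males, 1 and 1 in D1 females and 3 and 4 in D1 males. The smallest p among D2 females were those of Mfge8 (log2 -0.21), Gfap (-0.44) and Cbs (-0.33), and among D2 males those of Slc39a12 (-0.47), Htra1 (-0.37) and Slc7a10 (-0.42). In D1 females 20 of 33 lay below 0 (51% of all genes), with 1 at an unadjusted p under 0.05 (5.74%), and in D1 males 22 of 33 (47.9%), with 3 (2.76%). Among D1 females they were Atp1b2 (-0.24), Clu (0.20) and Slc1a3 (-0.25), and among D1 males Slc1a3 (-0.40), Apoe (-0.33) and Agt (-1.11). Agt averaged 9.13 reads per D1 library, so its difference rests on very few reads. The summed level was 2692 ± 215 CPM in D2 female fentanyl and 2919 ± 367 CPM in D2 female water libraries, and 2386 ± 443 CPM in D2 male fentanyl and 2737 ± 534 CPM in D2 male water libraries (SD, n = 6 each). A difference in response between the sexes passed an adjusted p of 0.05 for none of the 33 in D1 or D2 (edgeR, DESeq2 and limma voom 0 each, and 0 at an unadjusted p under 0.05 by edgeR and DESeq2, beside 4.02% of all genes in D1 and 8.23% in D2 by edgeR, while limma voom had 3 in D1 and 0 in D2). The smallest p were those of Entpd2 (female minus male -0.995), Itih3 (-0.75) and Ntsr2 (0.27) in D1, and of S100b (0.37), Slc1a2 (0.32) and Mfge8 (-0.17) in D2.

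Female and male water libraries were compared as a baseline. In D2, 0 of 33 passed by edgeR, beside 0.0847% of all genes, with 3 at an unadjusted p under 0.05 (11.3% of all genes), and in D1 0 of 33, beside 0.0477%, with 1 (6.26%). DESeq2 called 0 in each, with 4 in D2 and 1 in D1 at an unadjusted p under 0.05, and limma voom 0, with 5 in D2 and 1 in D1. In D2 the smallest p were those of Mfge8, with a log2 difference, female minus male, of 0.29 (95% interval 0.11 to 0.47, edgeR adjusted p = 0.197), Slc4a4 (-0.18) and Aldh1l1 (0.40). In D1 the smallest p were those of Agt, with 0.239 ± 0.178 CPM in female and 0.591 ± 0.287 CPM in male water libraries (SD, n = 6 each, log2 -1.26, edgeR adjusted p = 0.757), Clu (-0.19) and Gjb6 (-0.35). The Agt value rests on very few reads, with 9.13 per D1 library on average and the most, 33, in male water replicate 5.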

How the data were processed

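Ribosome-bound mRNA was pulled down from nucleus accumbens punches, and 10 ng of RNA per pool went into Smart-Seq v4 libraries, per the labels' protocols. That kit is known to keep neither strand nor molecular identifiers. The deposited values are raw read counts per gene over exons; TopHat2 2.0.8, HTSeq and GRCm38 are named in the submitters' processing notes, and the strand setting of the counting is not given in the sources used here. Reads in 5 summary lines (no gene, ambiguous, not unique) were left out; they took 23.1 to 32.6% of reads in D1 and 17.7 to 22.2% in D2 libraries. Of 54838 identifiers 54809 were paired with a symbol.

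Counts were filtered (filterByExpr, minimum 10, total 15), scaled with TMM and tested with edgeR 4.0.16's quasi-likelihood test in R 4.3.3, with Benjamini-Hochberg adjustment over all genes tested and a threshold of 0.05. D1 against D2 and the difference of response were fitted on all 48 libraries, and fentanyl against water within each pull-down on its 24, with a mean for each of the groups. Log2 CPM for correlations used a prior count of 2. DESeq2 1.42.0, limma 3.58.1 (voom), other scalings, no filter, a replicate block, a covariate (mean log2 level of vascular, oligodendrocyte and microglial markers, in place of their planned sum) and leaving out each library were alternatives. The fits were tested on simulated data.

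The members and all marker lists were chosen with earlier results of these data known. Every member is named in the D1 against D2 comparisons; in fentanyl comparisons the 6 with the smallest p are named (3 within or between sexes), and of the other lists the 3 widest each way or the first 2 as listed. The p-values measure the spread between pools of 4 mice. Same-numbered fentanyl and water libraries did not deviate together (24 pairs, median r -0.00474, lowest -0.0906, highest 0.133), so the numbers were not taken as pairs. The least different of 120 library pairs within a group had a chi-square of 7.36 per degree of freedom, far above sampling noise. Intervals on reads and floors cover counting error only. Promoter windows are RefSeq's on GRCm38.p6. A listed D2 neuron gene was not used here.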

Additional observations from a re-analysis of the deposited data

Results flagged for a closer look

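In groups of 6, a library was picked out where its gap to the nearest of the others was wide against the whole range of its group. Of 272 sets of 6 libraries 21 were picked out, or 7.72%. Chance picks out about 1 in 20 where values are normally distributed and sets are independent. The sets here share libraries and correlated genes, so no conclusion is drawn from that comparison. The 99 tests of a difference in the fentanyl response between pull-downs or between sexes gave 0 members past the threshold by edgeR's adjusted p.

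D1 female fentanyl replicate 5 stood apart most often. It had 437 CPM of Slc1a2 where the others had 177 to 248, 20.7 CPM of S100b where they had 9.56 to 12.7, and a sum over the 33 genes of 1160 CPM where they had 932 to 1020 CPM. D1 male water replicate 3 had 156 CPM of Apoe, against 71.6 to 96.1 in its group, and 12.5 CPM of Htra1, against 6.67 to 8.47. D2 male fentanyl replicate 3 had 1080 CPM of Apoe, against 586 to 766, and 25.6 CPM of S100b, against 16.6 to 19.0. D2 female fentanyl replicate 5 had 14.9 CPM of Cldn10, against 11.3 to 12.6, and 71.4 CPM of Slc4a4, below the 88.7 to 98.1 of its group.

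The other D1 values above their group were Slc7a10 in male fentanyl replicate 5 (1.30 CPM, others 0.621 to 0.854), Slc4a4 in male water replicate 1 (137 CPM, others 92.0 to 106), Agt in male water replicate 5 (1.13 CPM, others 0.343 to 0.608), Hes5 in male water replicate 4 (2.88 CPM, others 2.28 to 2.47) and Gjb6 in female water replicate 2 (2.07 CPM, others 1.04 to 1.35). Below their group were Gja1 in male fentanyl replicate 6 (3.58 CPM, others 5.05 to 5.64), F3 in male fentanyl replicate 4 (1.79 CPM, others 2.64 to 3.08), Cldn10 in male water replicate 6 (1.03 CPM, others 1.72 to 2.11) and Clu in female water replicate 6 (108 CPM, others at least 174). Among D2 libraries Slc39a12 was high in male fentanyl replicate 6 (3.56 CPM, others 2.26 to 2.71), Slc4a4 was high in male water replicate 2 (119 CPM, others 96.5 to 101), and Mlc1 was low in female fentanyl replicate 2 (29.3 CPM, others 39.2 to 41.5).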

How the results depend on the processing

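For every comparison the number of astrocyte genes called by direction was the same under edgeR, DESeq2, limma voom, RLE scaling, library size alone, no filter on low counts and each library left out where run: 31 lower in D1 than in D2, and 0 in all fentanyl and sex comparisons. No gene changed direction past the threshold. Without single libraries the D1 against D2 median in water ranged from -2.02 to -1.86 with 31 lower each time, the number below 0 under fentanyl from 19 to 23 in D1 and from 30 to 33 in D2, and the D2 median from -0.25 to -0.15. With the replicate number as a block, 31 genes were lower in D1 water libraries (median -1.91), and 0 were called for fentanyl in D2, where 9 had an unadjusted p under 0.05; the numbers are not known to pair the samples. Without Apoe, the summed level was 923 ± 61.4 CPM in D1 fentanyl and 955 ± 91.1 CPM in D1 water libraries. It was 1763 ± 230 CPM in D2 fentanyl and 1948 ± 277 CPM in D2 water libraries (SD, n = 12 each). All of these sums but that of D1 water moved by more than 1 SD. Leaving out the most abundant gene must lower a sum, so the move itself says nothing, and the D2 sums stayed above the D1 sums. Depth limits the scarce genes of D1, where 17 of 33 averaged at least 100 reads per library and the 95% interval of the Agt difference under fentanyl ran from -1.28 to 0.20.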
